A study of Homo sapiens with 12 samples.

Results

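The genes from SPOCK3 to PALLD lie next to each other on the long arm of chromosome 4, and most of them had less RNA in MTHFD2 knock-out cells than in wild-type cells. SPOCK3, ANXA10, DDX60L and PALLD were lower in every knock-out library than in any wild-type library at both harvests. By that measure 5 of the 8 genes counted from SPOCK3 to CBR4 were lower at each harvest. Of all genes tested, 18.4% were lower in this way initially and 17.2% after 2 months. The run was selected on this same difference between the genotypes, so nothing is read from these counts. The knock-out libraries together held 11.6% of the wild-type level of SPOCK3 and 15.5% of that of PALLD at the initial harvest, and ANXA10 was reduced to between 0 and 3 counts per library. DDX60 was lower at the initial harvest only by that measure, and CBR4 at the right-hand end was at the same level in both genotypes within its spread. In wild-type cells ANXA10 and PALLD rose over culture, and the change of PALLD over culture differed between the genotypes.

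The members were the rows of the gene table on chromosome 4 (build hg38) whose first base lies between 166700000 and 168930000, a window of 2.23 Mb, and that held at least 10 counts in 3 or more libraries. Of 60648 genes in the table, 22 start in the window and 8 met the count rule: SPOCK3, ANXA10, ENSG00000287188, DDX60, DDX60L, PALLD, ENSG00000279384 and CBR4. SPOCK3, ANXA10, DDX60, DDX60L and PALLD are the 5 that the rule names. The run was selected on its difference in counts between the genotypes at both harvests, so the values of the genotype comparison are given for these 8 genes as a description, with no test. All 8 also passed the filter on low counts used for the fits. Just inside the count rule was ENSG00000279384, with a highest count of 18, and just outside it was PALLD-AS1, with a highest count of 4. Just outside the window lie TLL1, 628.9 kb to the left of SPOCK3, and SH3RF1, 84.0 kb to the right of CBR4.

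RNA was sequenced from HCT116, an established human colon carcinoma line, in 4 groups of 3 biological replicates. The wild-type groups carry MTHFD2 and the knock-out groups come from a single clone isolated after CRISPR-Cas9 editing of MTHFD2, the mitochondrial folate enzyme methylenetetrahydrofolate dehydrogenase 2. Each genotype was harvested at the start (initial) and after 2 months of culture (final), with no other treatment named. Because the knock-out is 1 clone, an effect of losing MTHFD2 and any other property of that clone cannot be told apart in the genotype comparison.

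The genes of the run have unrelated products. SPOCK3 encodes testican-3, a secreted proteoglycan of the extracellular matrix from the family that holds SPARC. ANXA10 encodes an annexin, a class of proteins that bind phospholipid membranes, and is best known from stomach epithelium and from serrated tumours of the colon. DDX60 and DDX60L encode closely related RNA helicases of the family of Ski2, an RNA exosome cofactor, and both are induced by interferon, whose signal reaches DNA at the interferon-stimulated response element. PALLD encodes palladin, a scaffold that binds and bundles actin filaments and recruits other actin regulators. CBR4 encodes a mitochondrial reductase that takes part in fatty acid synthesis.

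The promoters of DDX60 and DDX60L are shown because their letters carry the feature for which the pair is known. The sequences are the 250 bases before the start that RefSeq lists for each gene on build GRCh38.p14. Capitals mark the core of the interferon-stimulated response element, searched on both strands as GAAA, any 2 bases, then GAAA again. The counted gene models begin further upstream, at base 168318883 for DDX60 and 168537786 for DDX60L, so the RefSeq starts lie inside them. The DDX60 bases are chr4:168318753-168319002 on the minus strand and the DDX60L bases are chr4:168480493-168480742 on the minus strand.
DDX60: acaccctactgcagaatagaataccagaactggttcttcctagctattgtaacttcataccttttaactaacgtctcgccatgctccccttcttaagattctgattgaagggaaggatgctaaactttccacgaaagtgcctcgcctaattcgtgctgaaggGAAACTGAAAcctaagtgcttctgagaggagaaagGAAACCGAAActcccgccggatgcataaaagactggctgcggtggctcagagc
DDX60L: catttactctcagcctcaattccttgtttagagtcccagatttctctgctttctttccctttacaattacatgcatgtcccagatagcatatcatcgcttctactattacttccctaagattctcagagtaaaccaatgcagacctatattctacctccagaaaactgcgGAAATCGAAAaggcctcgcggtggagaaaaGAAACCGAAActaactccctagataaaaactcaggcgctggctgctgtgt
Each of these promoters held 2 matches, beginning 88 and 53 bases before the start of DDX60 and 80 and 50 bases before the start of DDX60L. The match nearer to the start reads GAAACCGAAA in both. Over the 300-base windows of all genes, which run from 250 bases before to 50 after a start, 3.57% of 35116 windows held a match. Counted by gene, 4.38% of 27305 genes had a match, against 33 of the 52 genes (63.5%) with a window among a list of interferon-stimulated genes. The windows of SPOCK3, ANXA10, PALLD and CBR4 held no match to these letters. A match of letters describes the sequence and does not show that a factor was bound.

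ANXA10 and PALLD are the members that changed over culture in wild-type cells in every alternative fit, and their promoters are shown for their content of CpG dinucleotides, the bases that DNA methyltransferases act on. The ANXA10 sequence is chr4:168092287-168092536 and the PALLD sequence, of the third of 3 starts listed by RefSeq, is chr4:168831845-168832094, both on the plus strand. Capitals mark each CG, and the ANXA10 sequence has none.
ANXA10: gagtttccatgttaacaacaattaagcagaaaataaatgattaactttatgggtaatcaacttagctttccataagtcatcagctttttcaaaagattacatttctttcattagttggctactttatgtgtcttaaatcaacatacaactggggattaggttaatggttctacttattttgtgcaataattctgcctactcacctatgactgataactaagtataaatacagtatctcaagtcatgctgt
PALLD: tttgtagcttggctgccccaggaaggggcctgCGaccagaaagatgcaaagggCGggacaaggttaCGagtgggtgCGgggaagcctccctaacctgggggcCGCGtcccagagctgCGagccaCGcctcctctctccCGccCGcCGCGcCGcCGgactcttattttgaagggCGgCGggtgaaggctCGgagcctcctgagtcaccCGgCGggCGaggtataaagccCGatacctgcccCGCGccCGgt
The 300-base window of ANXA10 held 0 CG, the fewest that a window can hold. The windows at the 3 starts of PALLD held 5, 21 and 33 CG, and 29.6%, 60.5% and 82.8% of all windows had fewer. The first of these starts is base 168497052, where the counted gene model of PALLD begins. The third start, whose sequence is shown, had the most CG of the 3 and lies inside that model. The windows at the 3 starts of SPOCK3 held 22, 23 and 13. DDX60 had 11, DDX60L had 12 and CBR4 had 31, beside a median of 14 over all windows. In the 250 bases before the start CBR4 held 26 CG, more than the 24 of the PALLD sequence shown. The table gives 1 count per gene, so the start from which PALLD was transcribed is not known from it, and DNA methylation was not measured in these libraries.

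The libraries held 38597809 to 40017561 counts each. MTHFD2 itself was 412 ± 41.2 and 355 ± 32.3 CPM (counts per 1000000 counts of the scaled library; SD, n = 3 each) in wild-type cells at the initial and final harvests and 137 ± 9.1 and 137 ± 16.6 CPM in knock-out cells (exact permutation test exchanging genotype within harvest, two-sided p = 0.005, the smallest that 400 relabellings can give). The epithelial marker list was detected in full (9 of 9), with summed levels of 3300 to 4040 CPM in wild-type and 2730 to 3190 CPM in knock-out libraries. Of the 5 intestinal markers, CDX1 stayed at 3 counts or fewer, and the summed level was 11.2 to 17.1 CPM. Of the 7 fibroblast markers, COL1A1, COL3A1 and PDGFRB exceeded 3 counts in at least 1 library. COL1A2, DCN, LUM and THY1 were at 3 counts or fewer in every library (2 of 7 at 0). The summed level was 56.7 to 78.8 CPM in wild-type and 37.5 to 59.3 CPM in knock-out libraries. PTPRC, CD3E and MS4A1 of the 5 leukocyte markers and CDH5 of the 3 endothelial markers were likewise at 3 counts or fewer. The other leukocyte markers, CD14 and CD68, and the other endothelial markers, PECAM1 and VWF, exceeded 3 counts in at least 1 library. Summed levels were 0.0754 to 0.479 CPM for the leukocyte list and 1.22 to 2.22 CPM for the endothelial list. The part of these shifts in the results below was not tested.

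At the left-hand end, SPOCK3 (ENSG00000196104.11, chr4:166733384-167234796, minus strand) was a low-expressed gene. Its wild-type libraries held 4.34, 3.14 and 4.95 CPM at the initial harvest and 5.15, 6.04 and 5.95 CPM at the final harvest. Its knock-out libraries held 0.529, 0.401 and 0.51 CPM and then 0.528, 0.714 and 0.703 CPM. The highest knock-out library, at 0.714 CPM, was below the lowest wild-type library, at 3.14 CPM. The fitted log2 fold change of knock-out against wild type was -3.10 (SE 0.212) at the initial and -3.13 (SE 0.199) at the final harvest, or 11.6% and 11.3% of the wild-type mean.

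ANXA10 (ENSG00000109511.12, chr4:168092537-168187736, plus strand) lies 857.7 kb to the right and had the widest separation. Wild-type libraries held 4.0, 5.51 and 5.13 CPM at the initial harvest and 16.9, 17.9 and 18.1 CPM at the final harvest. Knock-out libraries held 1, 1 and 1 counts at the initial harvest and 3, 0 and 2 counts at the final harvest. Each knock-out library was thus at or under the floor of 3 counts, whereas the wild-type groups summed to 592 and 2010 counts. ANXA10 met the count rule only through its wild-type libraries, so the rule favoured a high ratio of wild-type to knock-out counts. Scaled for library size, this ratio was 193 at the initial harvest (95% exact interval 65.7 to 939) and 419 at the final harvest (179 to 1290). The intervals cover counting error only and are not a test, since the genotype difference selected the run. ENSG00000287188 overlaps the span of ANXA10 by 17.6 kb on the opposite strand without sharing exon bases, and reached 52 counts at most.

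The helicase pair came next. DDX60 (ENSG00000137628.18, chr4:168216291-168318883, minus strand) held 16.6, 13.2 and 15.7 CPM in wild-type and 10.0, 8.94 and 9.79 CPM in knock-out libraries at the initial harvest. After 2 months it held 14.3, 11.7 and 11.4 CPM in wild-type and 11, 12 and 10.7 CPM in knock-out libraries. The genotypes did not overlap at the initial harvest and overlapped at the final harvest, with log2 fold changes of -0.66 (SE 0.114) and -0.15 (SE 0.114). DDX60L (ENSG00000181381.15, chr4:168356735-168537786, minus strand), 37.9 kb away, was the more abundant of the pair. Its wild-type libraries held 83.5, 57.6 and 75.5 CPM and then 95.6, 97.0 and 99.2 CPM, and its knock-out libraries 31.6, 30.0 and 29.6 CPM and then 36.1, 39.9 and 30.4 CPM. The genotypes of DDX60L stayed apart at both harvests, with the knock-out at 42.1% and 36.5% of the wild-type mean (log2 fold change -1.25, SE 0.121, and -1.45, SE 0.12).

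PALLD (ENSG00000129116.19, chr4:168497052-168928457, plus strand) was the most abundant gene of the run in wild-type cells. Wild-type libraries held 197, 202 and 211 CPM at the initial harvest and 414, 470 and 481 CPM at the final harvest. Knock-out libraries held 30.6, 31.5 and 32.3 CPM and then 33.4, 29.4 and 31.5 CPM. The knock-out libraries of both harvests covered the same narrow range, whereas the wild-type harvests lay apart. The log2 fold change between genotypes was -2.69 (SE 0.0864) at the initial and -3.86 (SE 0.0904) at the final harvest, or 15.5% and 6.9% of the wild-type mean. In the counted gene models PALLD and DDX60L overlap by 40.7 kb on opposite strands with no exon base in common. PALLD and CBR4 share 108 exon bases on opposite strands, 1.07% of the exons of PALLD and 2.11% of those of CBR4, and whether the counting used strand is not given in the sources used here.

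The 3 members that the rule does not name by symbol behaved in different ways. ENSG00000279384 (chr4:168843988-168844735, plus strand), a single-exon gene model within an intron of PALLD, summed to 17 counts in wild-type and 6 in knock-out libraries at the initial harvest and to 50 and 5 counts at the final harvest. The corresponding count ratios were 2.77 (95% exact interval 1.04 to 8.59) and 10.4 (4.18 to 33.5), and its genotypes overlapped at the initial harvest only. These intervals cover counting error only and are not a test, since the genotype difference selected the run. ENSG00000279384 met the count rule only through the wild-type final libraries (18, 17 and 15 counts), so the rule favoured a high ratio at the final harvest. ENSG00000287188 (chr4:168170097-168194861, minus strand) lay between 0.815 and 1.27 CPM in wild-type and between 0.801 and 1.26 CPM in knock-out libraries, and overlapped at both harvests. CBR4 (ENSG00000145439.12, chr4:168863770-169010275, minus strand) had means of 31.3 ± 1.86 and 37.2 ± 4.38 CPM in wild-type and 30.6 ± 1.43 and 36.9 ± 2.47 CPM in knock-out cells (SD, n = 3 each). Its log2 fold changes between genotypes were -0.03 (SE 0.0949) and -0.01 (SE 0.0944), each smaller than its error.

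**Figure D1:**
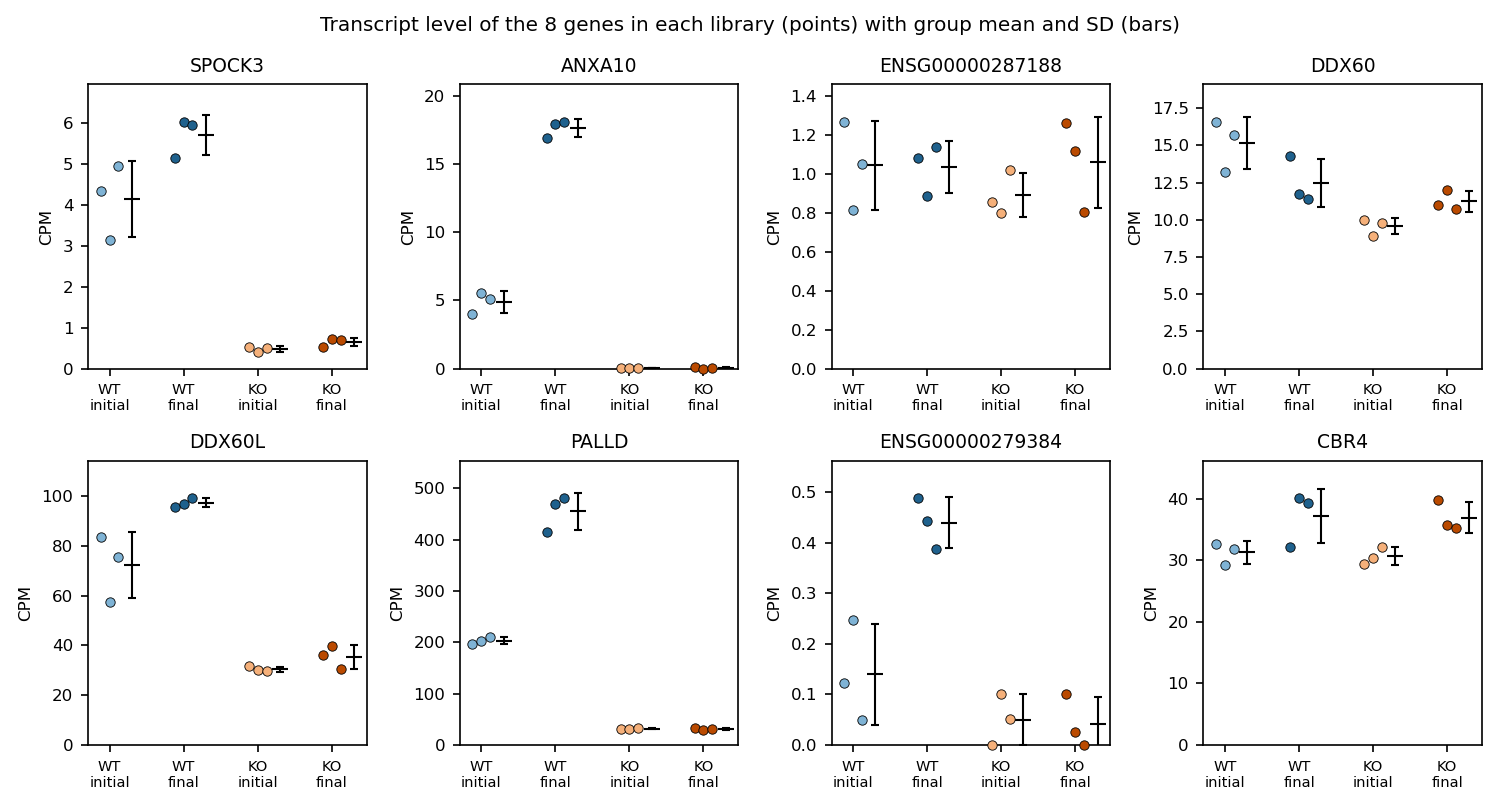
CPM of each of the 8 genes of the window, in chromosomal order and each on its own linear axis, in the 3 libraries of each group (points) with the mean and SD (bars). The knock-out points of SPOCK3, ANXA10, DDX60L and PALLD lie below all wild-type points, and those of CBR4 and ENSG00000287188 lie among them.

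Read as groups that did not overlap, 5 of the 8 genes had less RNA in knock-out cells when first harvested, beside 18.4% of the 18289 genes tested, and 5 of 8 at the final harvest, beside 17.2%. The 5 were SPOCK3, ANXA10, DDX60, DDX60L and PALLD at the initial harvest, and at the final harvest ENSG00000279384 took the place of DDX60. The genotype contrast chose the run, so nothing is read from these counts. Between the genes, the initial log2 fold changes in order along the chromosome began with -3.10 for SPOCK3, -7.42 for ANXA10 and -0.23 for ENSG00000287188. They went on with -0.66 for DDX60, -1.25 for DDX60L, -2.69 for PALLD, -1.41 for ENSG00000279384 and -0.03 for CBR4. The difference therefore did not follow position in a single direction. The value of ANXA10 rests on knock-out libraries under the floor of 3 counts and depends on the prior count of the fit.

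The genes on both sides differed less between genotypes than SPOCK3, ANXA10, DDX60L and PALLD, and in both directions. The 5 nearest that met the count rule were KLHL2, MSMO1, CPE, ENSG00000287424 and TLL1 on the left and SH3RF1, NEK1, ENSG00000286302, CLCN3 and HPF1 on the right, and the median log2 fold change of the 10, averaged over the harvests, was -0.12. TLL1, a secreted metalloproteinase, had -0.35 and -0.29 at the initial and final harvests. CPE, which trims prohormones, had -0.27 and -0.28, and NEK1, a kinase of cilia and DNA repair, had -0.28 and -0.38. SH3RF1, a scaffold with ubiquitin ligase activity and the first gene after CBR4, was higher in the knock-out, at 114 ± 4.42 and 116 ± 6.16 CPM against 72.3 ± 4.48 and 84.3 ± 2.7 CPM in wild-type cells (SD, n = 3 each; log2 fold change 0.65 and 0.46). The genotypes did not overlap for 4 neighbours lower and 1 higher at the initial harvest (by this measure 18.4% of all genes were lower and 17.0% higher) and for 3 lower and 1 higher at the final harvest (17.2% lower and 15.9% higher). The ends of the window were set with these values in view, so they also carry no test.

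Over a wider stretch, 13 tested genes started within 5 Mb to the left of the window, with median log2 fold changes of 0.0 and 0.11 at the initial and final harvests. The 13 within 5 Mb to the right had medians of -0.08 and -0.05. All 660 on chromosome 4 outside the window, both flanks included, had -0.02 and -0.01. Inside the window the medians over all 8 genes were -1.33 and -2.29, and over the 5 named genes -2.69 and -3.13.

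**Figure D2:**
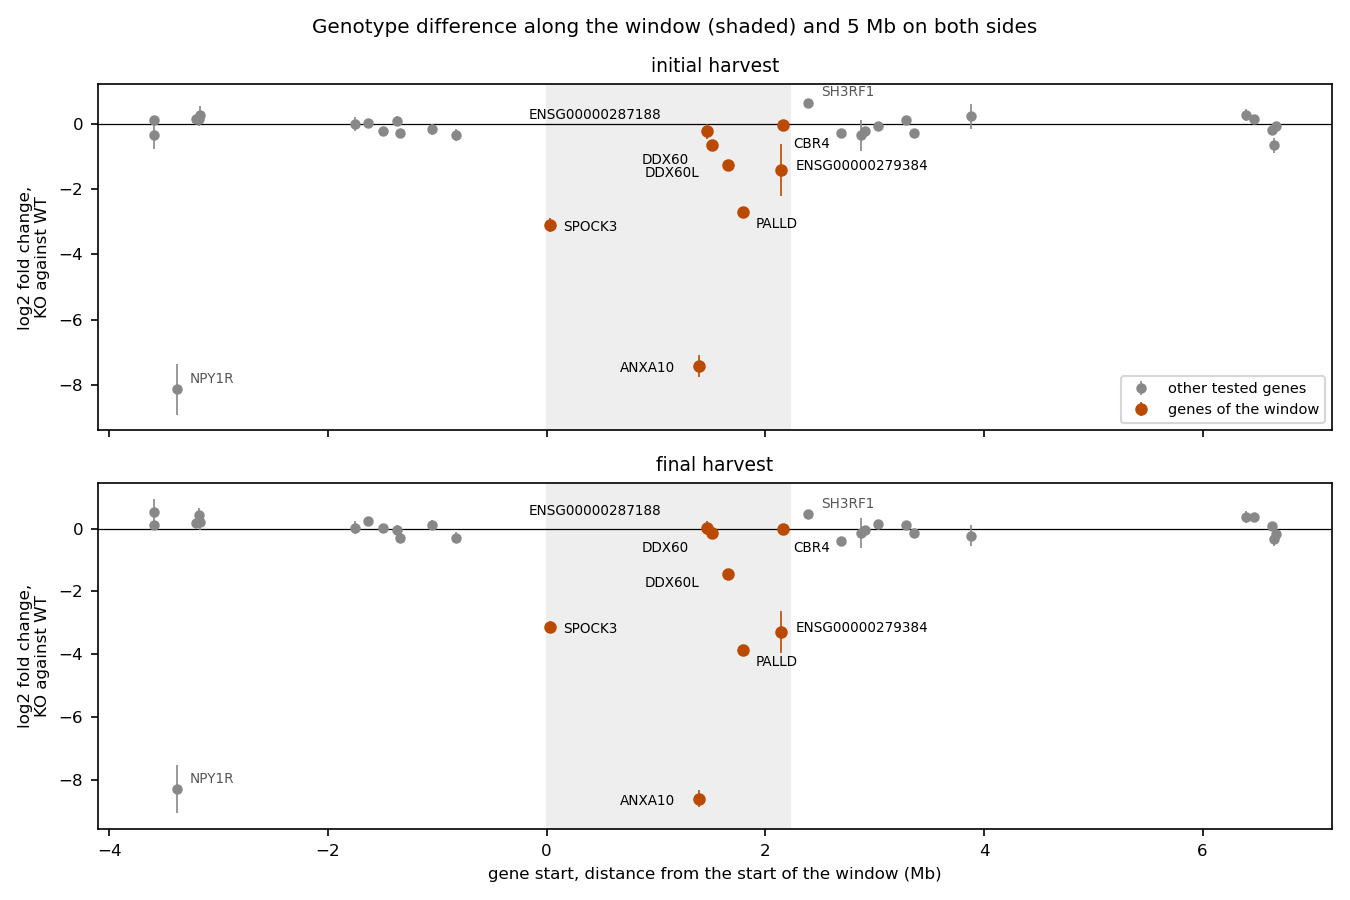
Log2 fold change of knock-out against wild type (y axis, bars are SE) for each tested gene within 5 Mb of the window, by the distance of the gene's start from the start of the window in Mb, at the initial (top) and final (bottom) harvest. Genes of the window (orange, shaded) reach below -2 at SPOCK3, ANXA10 and PALLD at both harvests and at ENSG00000279384 at the final harvest. The flanking genes other than NPY1R lie near 0. The fitted values of ANXA10 and NPY1R, whose knock-out libraries are at the floor of 3 counts or below, depend on the prior count of the fit.

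Changes over culture were tested in each genotype with edgeR's quasi-likelihood test, adjusted over all genes. These tests share libraries with the genotype contrast, and the genes were chosen with earlier results of these data known. In wild-type cells 3 of the 8 genes rose and 0 fell, beside 3.05% of all genes called higher and 3.42% lower (6.47% in all). ANXA10 rose to 361% of its initial level, from 4.88 ± 0.782 to 17.6 ± 0.638 CPM (SD, n = 3 each; log2 fold change 1.85, SE 0.139, adjusted p = 8.9e-07). PALLD rose to 224%, from 203 ± 7.28 to 455 ± 36 CPM (a log2 change of 1.16, SE 0.081, adjusted p = 3.31e-07). For both genes each final library lay above each initial library, and both stayed past the threshold of 0.05 in 17 of 17 alternative fits.

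DDX60L, the helicase, was past the threshold by less, with a log2 fold change of 0.43 (SE 0.117, adjusted p = 0.0378). It stayed so in 9 of 17 alternatives (adjusted p from 0.00148 to 0.108). Without wild-type initial replicate 2, its lowest wild-type library at 57.6 CPM, the log2 fold change was 0.29 (adjusted p = 0.0923). The call was also lost without wild-type initial replicate 3 (0.0909), without wild-type final replicate 1, 2 or 3 (0.053, 0.0946 and 0.108), without knock-out initial replicate 2 or 3 (0.0588 and 0.0605), and in a fit of the wild-type libraries alone (0.105).

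The other members did not pass in wild-type cells. SPOCK3 had a log2 fold change of 0.46 (SE 0.158, adjusted p = 0.101), and ENSG00000279384 had 1.63 (SE 0.526, adjusted p = 0.0816) on 17 and 50 counts. Both were higher in each final than in each initial library. ENSG00000279384 met the count rule only through the wild-type final libraries (18, 17 and 15 counts, against 5, 10 and 2 initially), so the rule favoured its rise. SPOCK3, ANXA10, PALLD and DDX60L made 4 of the other 7 genes without overlap, beside 10.8% of all genes. DDX60 had -0.28 (SE 0.112, adjusted p = 0.172), CBR4 had 0.25 (SE 0.0947, adjusted p = 0.143) and ENSG00000287188 had -0.01 (SE 0.222, adjusted p = 0.984). The helicase pair therefore had estimates of opposite sign over culture, of which that of DDX60L passed the test.

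In knock-out cells edgeR called 0 of the 8 genes over culture, DESeq2 likewise 0, and 1 had an unadjusted p under 0.05 (CBR4), beside 0.837% of all genes called higher and 0.64% lower (1.48% in all). PALLD was level, at 31.5 ± 0.869 CPM at the initial and 31.4 ± 2 CPM at the final harvest (log2 fold change -0.00, SE 0.0834, adjusted p = 0.995). SPOCK3 had 0.43 (SE 0.27, adjusted p = 0.489), close to its wild-type estimate but with a wider error at its low level. DDX60 had 0.23 (SE 0.115, adjusted p = 0.368), DDX60L 0.22 (SE 0.12, adjusted p = 0.404) and CBR4 0.27 (SE 0.0947, adjusted p = 0.184). DDX60 and CBR4 were higher in each final than in each initial knock-out library, 2 of 8 genes beside 11.9% of all genes. No fold is given for ANXA10, which was at the floor at both harvests.

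The difference between these changes, the interaction of genotype and time, passed for 1 of the 8 genes, which was lower, beside 0.476% of all genes lower and 0.809% higher (1.28% in all). PALLD rose by 1.16 on the log2 scale more in wild-type than in knock-out cells (interaction -1.16, SE 0.116, adjusted p = 4.6e-05), and this held in 16 of 16 alternatives (adjusted p from 8.8e-20 to 0.000442). DDX60 had an interaction of 0.51 (SE 0.161, adjusted p = 0.17), DDX60L had -0.21 (SE 0.168, adjusted p = 0.666) and SPOCK3 had -0.03 (SE 0.337, adjusted p = 0.983). For ANXA10 the fitted interaction of -1.18 (SE 1.1, adjusted p = 0.722) rests on knock-out libraries at 0 to 3 counts, and a change there of the size seen in wild-type cells was not detectable at this depth.

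Among the 10 neighbours, MSMO1, a cholesterol synthesis enzyme, rose over culture in wild-type cells (log2 fold change 0.57, SE 0.158, adjusted p = 0.0405). ENSG00000287424 rose in both wild-type (0.62, SE 0.164, adjusted p = 0.0335) and knock-out cells (0.91, SE 0.165, adjusted p = 0.01). Both wild-type calls were lost without wild-type initial replicate 2 or 3, wild-type final replicate 2 or 3, or knock-out initial replicate 2 or 3, and in a fit of the wild-type libraries alone, and that of MSMO1 also without wild-type final replicate 1 (adjusted p from 0.0516 to 0.135). The knock-out call of ENSG00000287424 was lost without knock-out initial replicate 1 (adjusted p = 0.0643) or 2 (0.0519). None of the 10 passed the interaction test in edgeR or in DESeq2, and 0 had an unadjusted p under 0.05.

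**Figure D3:**
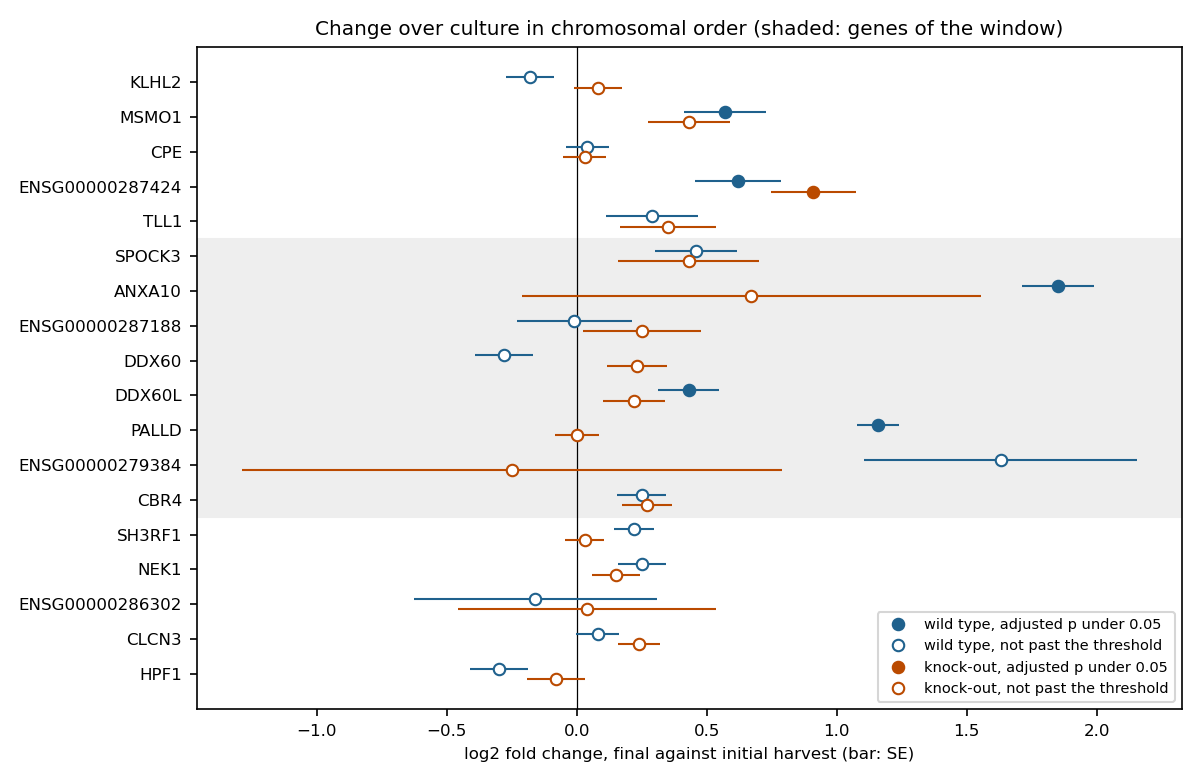
Log2 fold change of the final against the initial harvest (x axis, bars are SE) for the 8 genes of the window (shaded) and the 5 neighbours on each side, in chromosomal order, in wild-type and knock-out cells. Filled points passed an adjusted p of 0.05, with ANXA10 at 1.85 and PALLD at 1.16 the farthest right of these in wild-type cells, whereas PALLD was at -0.00 in knock-out cells and the knock-out value of ANXA10 rests on 0 to 3 counts per library.

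Levels of different genes were compared as CPM per kb of exon. In wild-type cells at the initial harvest PALLD stood first at 20.1 CPM per kb, followed by CBR4 (6.12) and DDX60L (5.94), which overlapped, then ANXA10 (2.66), SPOCK3 (0.925) and DDX60 (0.873), of which the last pair overlapped. ENSG00000287188 (0.395) and ENSG00000279384 (0.187) were lowest and overlapped. At the final harvest the wild-type order was PALLD (45.0), ANXA10 (9.6), DDX60L (8.0), CBR4 (7.28), SPOCK3 (1.27) and DDX60 (0.72), with no overlap between genes next to each other in this order. ANXA10 moved from the fourth to the second place. In knock-out cells CBR4 stood first at both harvests (6.0 and 7.23), ahead of PALLD (3.11 and 3.1) and DDX60L (2.5 and 2.92), and these last 2 overlapped at the final harvest. SPOCK3 (0.107 and 0.145), ENSG00000279384 (0.0674 and 0.0562) and ANXA10 (0.0138 and 0.0228) came last, and each overlapped with the next.

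The genes elsewhere whose pattern over the 12 libraries was most like the mean standardised profile of the 5 named genes were ATXN1 and KIF13A on chromosome 6, SEMA3A on chromosome 7, SVIL on chromosome 10 and SAT1 on chromosome X, out of 12150 genes compared outside chromosome 4. Their Pearson correlations with that profile were 0.995, 0.994, 0.995, 0.992 and 0.991, over libraries that fall into 4 groups, so that they mainly describe a shared difference between groups. SEMA3A, a secreted guidance molecule, averaged 33.9 and 36.5 CPM in wild-type and 0.985 and 1.74 CPM in knock-out cells. SVIL, which binds actin and myosin, averaged 39 and 48.2 CPM against 10.5 and 11.6 CPM. ATXN1, a transcriptional regulator, averaged 23.1 and 25.4 CPM against 5.25 and 7.42 CPM.

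Relatives and partners of the run's genes were then read from lists that leave the run itself out. For each list the counts called in the knock-out stand beside all genes, of which 8.55% were higher and 11.3% lower at the initial harvest (19.9% in all) and 8.38% higher and 10.2% lower at the final harvest (18.5% in all). The median log2 fold change of all genes was 0.0 at both harvests.

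Of the RNA helicase sensors and Ski complex subunits, kin and partners of DDX60 and DDX60L, 0 of 18 were higher and 1 was lower at the initial harvest, and 0 were higher and 2 lower at the final harvest (medians 0.0 and -0.06). IFIH1, the sensor of long double-stranded RNA known as MDA5, fell from 12.4 ± 0.687 to 4.49 ± 0.546 CPM at the initial harvest (SD, n = 3 each; log2 fold change -1.46, SE 0.111, adjusted p = 9.81e-08). At the final harvest it was 16.8 ± 0.646 against 5.71 ± 0.495 CPM (-1.56, SE 0.108, adjusted p = 2.8e-08). HELZ2 was the other one lower at the final harvest (-0.34, adjusted p = 0.0331), while RIGI, the sensor of RNA ends, had -0.63 (adjusted p = 0.115) and -0.26 (adjusted p = 0.545). IFIH1 also rose over culture in wild-type cells (0.44, adjusted p = 0.0155), a call lost without wild-type final replicate 2 (adjusted p = 0.0545) or 3 (0.0776). The HELZ2 call was lost without wild-type final replicate 1 or 2 or knock-out final replicate 1 or 3 (adjusted p from 0.0505 to 0.153). Without wild-type initial replicate 2 the list had 3 calls at the initial harvest.

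Interferon-stimulated genes went both ways. Of 53 tested, 6 were higher and 7 lower at the initial harvest and 6 were higher and 8 lower at the final harvest, with medians of -0.01 and -0.10. IFI35 was lower, from 10.7 ± 1.07 to 6.37 ± 0.624 CPM and then from 11.7 ± 1.52 to 3.92 ± 0.319 CPM (SD, n = 3 each; log2 fold change -0.75, adjusted p = 0.000367, and -1.57, adjusted p = 2.12e-07). OASL, a relative of the oligoadenylate synthetases, was lower (-0.82, adjusted p = 0.00169, and -1.02, adjusted p = 0.000175), while TRIM22, an antiviral ubiquitin ligase, was higher (0.84, adjusted p = 0.00319, and 0.98, adjusted p = 0.00117). Over culture in wild-type cells 4 of the 53 rose and 0 fell, beside 3.05% and 3.42% of all genes. These were IFI6, SAMD9, SP100 and SP110, named after their values were seen, with log2 fold changes of 0.72, 0.74, 0.28 and 0.40. The call of SP100 held in 4 of 17 alternatives and was lost with any library left out other than wild-type final replicate 1 (adjusted p from 0.0525 to 0.184), and that of SP110 was lost without wild-type final replicate 2 (0.0521). The count of 4 became 2 without wild-type final replicate 2 and 1 in a fit of the wild-type libraries alone, and the 13 calls at the initial harvest became 8 without wild-type initial replicate 3 or knock-out initial replicate 2.

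Among the annexins other than ANXA10, 1 of 9 was higher and 3 lower in the knock-out at each harvest (medians 0.09 and -0.16). ANXA1 averaged 790 and 709 CPM in wild-type and 540 and 550 CPM in knock-out cells (log2 fold change -0.55, adjusted p = 0.000733, and -0.36, adjusted p = 0.0142). ANXA9 was lower (-0.74, adjusted p = 0.000206, and -0.49, adjusted p = 0.00477), as was ANXA7 (-0.31, adjusted p = 0.039, and -0.43, adjusted p = 0.00527). The final call of ANXA1 was lost without knock-out final replicate 2 (adjusted p = 0.0784). The initial call of ANXA7 held in 8 of 17 alternatives (adjusted p from 0.0112 to 0.156) and was lost without wild-type initial replicate 2 or 3, wild-type final replicate 2 or 3, any knock-out initial replicate or knock-out final replicate 1, and in a fit of the initial libraries alone. ANXA3 was the one that was higher, at 414 and 396 CPM against 288 and 266 CPM (0.52, adjusted p = 0.00103, and 0.57, adjusted p = 0.000454). Averaged over the harvests, where 14.0% of all genes were higher and 16.1% lower (30.1% in all), ANXA11 was also higher (0.19, adjusted p = 0.0477), in 6 of 16 alternatives, and lost with any library left out other than wild-type initial replicate 2 and knock-out final replicate 2. No annexin other than ANXA10 passed over culture in wild-type cells (0 of 9 by edgeR and DESeq2, 0 with an unadjusted p under 0.05). Of all genes 6.47% were called by edgeR in this comparison, so 0 of 9 is near that share.

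Among the testicans, the SPARC family and the membrane metalloproteinases, 1 of 8 was higher and 2 lower at the initial harvest and 3 were higher and 0 lower at the final harvest (medians 0.0 and 0.19). SPARC, a matrix protein that modulates cell adhesion, was far higher in the knock-out, at 273 ± 14.7 against 44.5 ± 6.08 CPM at the initial harvest and 217 ± 8.19 against 20 ± 3.03 CPM at the final harvest (SD, n = 3 each; log2 fold change 2.62, adjusted p = 1.47e-10, and 3.44, adjusted p = 5.68e-12). SPOCK1, the testican most widely studied, had 0.44 (adjusted p = 0.054) and 0.62 (adjusted p = 0.0123), opposite in sign to SPOCK3. TIMP2, an inhibitor of metalloproteinases, was the third one higher at the final harvest (0.26, adjusted p = 0.0303). SPARCL1 (-1.25, adjusted p = 0.00434) and MMP14, a membrane-bound collagenase (-0.48, adjusted p = 0.0144), were lower at the initial harvest, and the MMP14 call was lost without knock-out initial replicate 3 (adjusted p = 0.0845). In wild-type cells over culture 0 of the 8 rose and 3 fell, beside 3.05% and 3.42% of all genes, with a list median of -0.38 beside 0.01 for all genes: SPARC (-1.16, adjusted p = 1.29e-05), MMP14 (-0.70, adjusted p = 0.00343) and TIMP2 (-0.37, adjusted p = 0.00895). The fall of TIMP2 was lost without wild-type initial replicate 3 or wild-type final replicate 2 or 3 and in a fit of the wild-type libraries alone (adjusted p from 0.0573 to 0.065), and without wild-type final replicate 1 the list had 5 calls. At the final harvest the call of TIMP2 was lost without wild-type or knock-out final replicate 2 or 3 and with no filter on low counts (adjusted p from 0.0918 to 0.131) and that of SPOCK1 without wild-type final replicate 3 (0.0503), which left 1 of the 3.

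Of palladin's relatives and binding partners, 2 of 15 were higher and 3 lower at the initial harvest and 1 was higher and 3 lower at the final harvest (medians 0.02 and -0.09). EPS8, an actin-capping adaptor, was lower at 60.1 and 72.6 CPM against 93.1 and 104 CPM (log2 fold change -0.63, adjusted p = 3.02e-05, and -0.52, adjusted p = 0.000194). EZR, which links actin to the membrane, was higher at 3140 and 2960 CPM against 2400 and 2350 CPM (0.39, adjusted p = 0.0112, and 0.33, adjusted p = 0.0287). MYPN, myopalladin, the nearest relative of palladin in the list, averaged 0.214 and 0.325 CPM in wild-type and 0.042 and 0.0505 CPM in knock-out cells, where it is close to the floor (adjusted p = 0.00399 and 0.000526). LASP1 was higher (0.29, adjusted p = 0.026) and LPP lower (-0.48, adjusted p = 0.0186) at the initial harvest, and EVL was lower on the average of the harvests (-0.24, adjusted p = 0.029). Several of these calls rested on single libraries. The initial calls of LASP1, LPP and EZR were lost without knock-out initial replicate 2, and those of LASP1 and LPP also without wild-type initial replicate 1 or 3. That of LASP1 was lost without knock-out initial replicate 3 as well, so that the 5 calls became 2 to 3. The final call of EZR was lost without wild-type final replicate 2 or 3, knock-out initial replicate 1 or any knock-out final replicate and in a fit of the final libraries alone (adjusted p from 0.0514 to 0.148), and that of EVL without wild-type initial replicate 3, wild-type final replicate 1 or 2, knock-out initial replicate 2 or 3 or knock-out final replicate 1 (0.0508 to 0.0818).

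VASP, which extends actin filaments and binds palladin, moved with culture in the same direction as PALLD. It averaged 97.4 ± 15 and 151 ± 17.6 CPM in wild-type and 99.8 ± 4.5 and 88 ± 9.7 CPM in knock-out cells at the initial and final harvests (SD, n = 3 each). It rose over culture in wild-type cells (log2 fold change 0.63, adjusted p = 0.00307), as 1 of 15 partners beside 3.05% of all genes, and was lower in knock-out cells when harvested last (-0.78, adjusted p = 0.000136). These list genes were tested over all 18289 genes, and no list as a whole was tested.

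**Figure D4:**
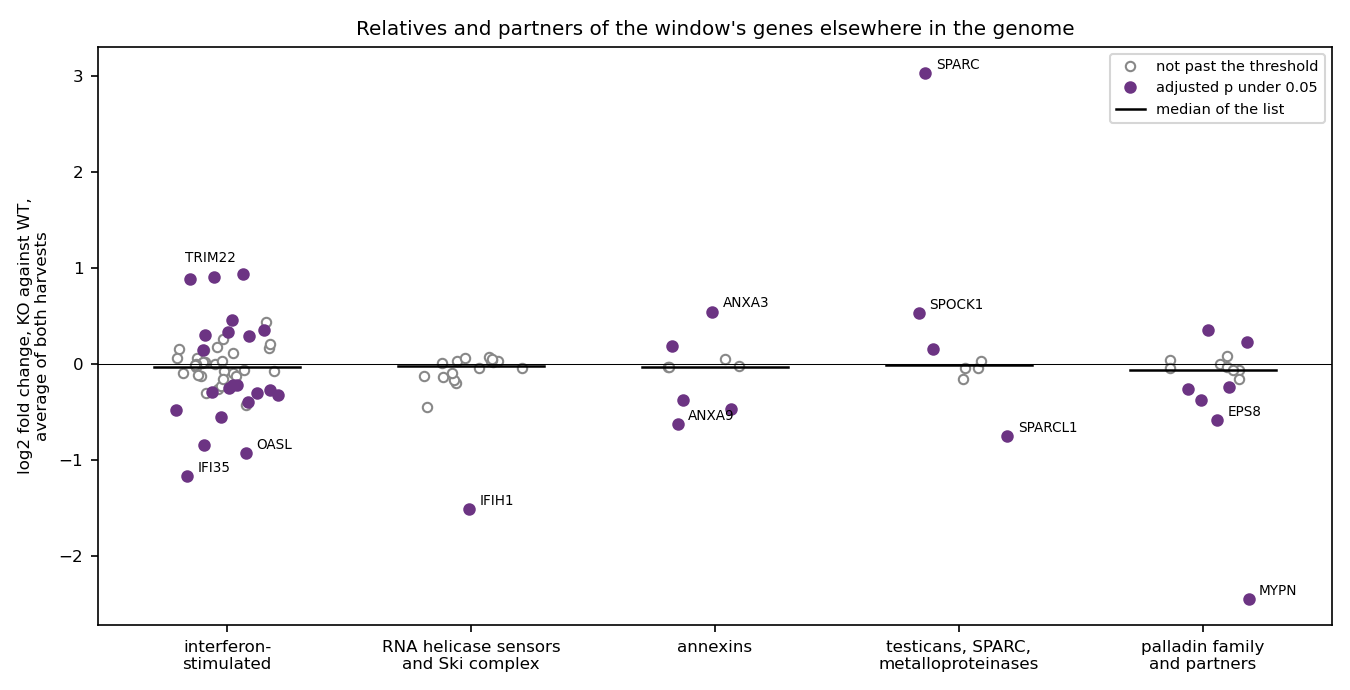
Log2 fold change of knock-out against wild type, averaged over both harvests (y axis), for each tested gene of the 5 lists, with filled points for an adjusted p under 0.05 and a bar at the median of the list. The medians lie near 0, with SPARC above and IFIH1 and MYPN below the rest of their lists.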

How the data were processed

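The submitters' processing notes name STAR, featureCounts and hg38, with no version or role, and the authors deposited 1 table of raw counts per gene. The annotation release, strand setting and treatment of multi-mapped reads are not given in the sources used here. The 60648 genes are the intact rows, after 5 lines of 1 broken entry were left out. Counts were fitted with edgeR 4.0.16 (R 4.3.3; TMM factors, filterByExpr by group, robust quasi-likelihood, 4 group means over 12 libraries), and p-values were adjusted by Benjamini-Hochberg over 18289 genes at 0.05. SE is the absolute log2 fold change over the square root of F, and CPM are scaled by TMM. Count ratios have exact binomial intervals of 95%, and the floor is 3 counts. The members and lists were chosen with earlier results of these data known. Named genes are the 8 window rows, the 5 nearest neighbours per side, the 5 genes of most similar profile, MTHFD2, the 3 list genes with the smallest average genotype p, and called annexin, testican and palladin genes. Alternatives were DESeq2 1.42.0, its size factors, no filter, only the groups compared, the replicate number as a block, and each library left out. Gene-level counts in bulk cultures do not tell fewer expressing cells from less RNA per cell.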

Additional observations from a re-analysis of the deposited data

Results flagged for a closer look

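The change over culture differed between genotypes, by the interaction test in edgeR, for 1 gene of the run and 4 named list genes. The list genes were 2 of 53 interferon-stimulated genes, 1 of 8 in the testican list and 1 of 15 in the palladin list. Of the helicase sensors and Ski subunits 0 of 18 passed, and of the annexins 0 of 9, beside 1.28% of all genes. PALLD had an interaction of -1.16 on the log2 scale (adjusted p = 4.6e-05), as described above. IFI6, which was named after its values were seen, had -0.96 (adjusted p = 0.0497) and held in 6 of 16 alternatives. It was lost with any library left out other than wild-type initial replicates 2 and 3 (adjusted p from 0.0507 to 0.162). IFI35 had -0.82 (adjusted p = 0.0306), falling over culture in knock-out cells by 0.70 (adjusted p = 0.0123) and not passing in wild-type cells, and the interaction held in 8 of 16 alternatives. It was lost without wild-type initial replicate 1 or 3, wild-type final replicate 2 or 3, knock-out initial replicate 1 or 2, or knock-out final replicate 1 or 2 (adjusted p from 0.0501 to 0.116), and the knock-out fall without knock-out initial replicate 1 or 2 or knock-out final replicate 2 (0.0581 to 0.0879). SPARC had 0.82 (adjusted p = 0.0131), since its fall over culture was larger in wild-type cells, and this held in 12 of 16 alternatives and was lost without wild-type initial replicate 3, wild-type final replicate 2 or 3, or knock-out initial replicate 3 (adjusted p from 0.0508 to 0.0556). VASP had -0.81 (adjusted p = 0.0182), which held in 10 of 16 alternatives and was lost without wild-type initial replicate 3, wild-type final replicate 2 or 3, knock-out initial replicate 2, or knock-out final replicate 1 or 2 (adjusted p from 0.0503 to 0.0705).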

How the results depend on the processing

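Among the 5 named genes the median genotype difference was -2.69 and -3.13 and ranged from -2.71 to -2.67 and from -3.21 to -3.01 with 1 library left out, and that of the neighbours, -0.12, from -0.14 to -0.06. Calls among the 8 genes ranged from 2 to 4 over culture in wild-type cells, 0 to 0 in knock-out cells and 1 to 1 for the interaction. The lists had 39 calls on the average of the harvests (31 to 38) and 9 in wild-type cells over culture (5 to 12, with 5 without wild-type final replicate 2). The log2 change of MTHFD2 ranged from -1.53 to -1.44. With only the groups compared, the lists had 5 calls over culture in wild-type cells and all genes 578 in place of 1183. All genes called over culture in knock-out cells were 270, against 599 with DESeq2, 484 with no filter and 728 with only the groups compared, and for the interaction 235, against 464 with DESeq2 and 423 with no filter. Leaving out 1 library, all genes called ranged from 2423 (without knock-out initial replicate 2) to 4615 for the genotype at the initial harvest (3635 with all libraries), 2561 to 3895 at the final harvest, 4657 to 6039 on average, 627 to 1399 over culture in wild-type cells, 94 to 463 in knock-out cells and 124 to 444 for the interaction. No value past the threshold changed sign in these alternatives, whereas some values near 0 that did not pass did, such as the interaction of SPOCK3 (-0.18 to 0.13). Same-numbered libraries did not deviate together (correlations from -0.358 to 0.238), so the numbers gave no sign of pairing, which these correlations cannot exclude. With the replicate number as a block, calls among the 8 genes were 3, 0 and 1, the medians were -2.69, -3.14 and -0.12, the lists had 37 and 9 calls, and all genes 3539, 3298, 5421, 1123, 246 and 217 in the order above. Depth limits ANXA10 in knock-out cells, ENSG00000279384 and MYPN, whose counts lie near the floor.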

Other observations

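One gene outside the window, noticed after the values were seen, had a pattern of presence and absence like that of ANXA10. NPY1R (chr4:163323962-163344832), a receptor of neuropeptide Y, starts 3.38 Mb to the left of the window and held 42, 24 and 42 counts in wild-type libraries at the initial harvest and 29, 46 and 39 counts at the final harvest. It held 0 counts in all 6 knock-out libraries, which allows up to 3 counts in each. It was the 1 gene among the 13 tested within 5 Mb to the left with a log2 fold change under -1, beside 0 of 13 to the right. Of all 660 tested on chromosome 4 outside the window, NPY1R and both flanks included, 29 and 32 were under -1 at the initial and final harvests.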
